A study of Mus musculus with 10 samples.

Results

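The promoters of 10 pluripotency genes, Nanog, Sox2, Klf4, Utf1, Lin28a, Zfp42, Sall4, Prdm14, Dppa3 and Esrrb, were examined in the DNA of mouse spermatozoa. A promoter was taken as the window from 2 kb upstream to 1 kb downstream of the start of the gene record in the GENCODE annotation of the mouse genome build GRCm38 (mm10). A CpG site counted as measured in an animal when it had at least 10 reads there after the reads of both strands had been summed. The 10 windows hold 1062 CpG sites, of which 360 were measured in at least 1 animal and 273 in all 10 animals. The whole series holds 1342740 CpG sites measured in at least 1 animal and 904354 measured in all. Each of the 10 windows had at least 1 CpG site measured in every animal, whereas this was so for 65.7% of the windows of all 21728 protein-coding genes.

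All animals were male C57Bl/6 mice. In the P-generation, the treated males received decitabine (0.1 µg per g of body weight) and the control males the vehicle, 7.5% dimethyl sulfoxide in buffered saline, which the decitabine animals also received with the drug. Injections were intraperitoneal, 3 times per week for 7 weeks, and began at an age of 7 weeks. The F3-generation descended from such males by matings with untreated females and was itself not treated, so that "F3 decitabine" names the ancestor's treatment. Sperm DNA of 2 control and 3 decitabine animals of the P-generation (C8 and C14, and D10, D11 and D13) and of 2 control and 3 decitabine animals of the F3-generation (F3C9 and F3C30, and F3D1, F3D7 and F3D31) was measured, 1 library per animal. The study calls these samples from larger groups representative, but also highly selected, with parents and related F3 animals chosen to be analysed together. Per the study F3C9 descended from C8, F3C30 from C14, F3D1 and F3D31 both from D10, and F3D7 from D11. Thus, the 3 F3 decitabine animals came from 2 treated males, and p-values over F3 animals treat relatives as independent. Decitabine is a cytidine analogue that is built into replicating DNA, where it traps DNA methyltransferases. The comparisons address whether sperm DNA methylation differed after the treatment and whether it differed in untreated descendants.

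Pluripotency genes encode the transcription factors and RNA-binding proteins that keep the early embryo, embryonic stem cells and, for several of them, primordial germ cells undifferentiated. Many are shut off in somatic tissues, and for those with few CpG sites around their start this is commonly accompanied by DNA methylation. Methylation at a promoter with few CpG sites and at a CpG island are different things, since CpG islands are unmethylated in most cell types whether or not the gene is transcribed.

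Reduced representation bisulfite sequencing (RRBS) cuts DNA with the enzyme MspI at CCGG, whether or not the site is methylated, and reads the ends of short fragments, so that a window is seen only next to such sites. The coverage was very uneven between the windows. Sox2 had 93 of its 219 CpG sites measured in all animals, whereas Dppa3 had 1 of 53, Esrrb 1 of 61 and Nanog 2 of 46. CCGG occurred 29 times in the Sox2 window and 2 times in that of Nanog, against a median of 7 times in the windows of all protein-coding genes, of which 90.3% held it at least once. The number of measured sites did not follow this count alone. The Esrrb window held CCGG 9 times, whereas that of Sall4 held it 6 times and had 12 CpG sites measured in all animals. The levels of Dppa3, Esrrb and Nanog are therefore those of 1 or 2 CpG sites and not of a promoter as a whole.

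Summed coverage per animal was between 48903817 and 115158278 reads over cytosines, and the median CpG site with at least 10 reads had between 31 and 65 reads. As a check of the label, gene-start windows of imprinted genes with maternal methylation were read first. Maternally methylated regions are unmethylated in sperm and methylated on the maternal allele in somatic cells. The windows were not matched to these regions, so a low level in a window is only a weak check. Of 14 such windows 11 were covered and all 11 were below 20%, with means between 6.36% and 15.9%, and none was at 0 in all animals. The mean of the 11 windows was between 8.6% and 16.1% in single animals. The control regions of H19 and Meg3, which sperm methylates, stood at 93.1% and 91.1%, and that of Rasgrf1 was not covered. Control animal C8 stood apart from the others. In this animal 6.48% of the 904354 CpG sites were at least 25 percentage points away from the median of the other 9 animals, whereas this share was between 0.238% and 2.39% in the others. Of the 273 pluripotency CpG sites, 10 were that far away in C8, 2 in D11, 1 each in F3C9 and F3D31 and 0 in the other 6 animals. Group differences of the P-generation in the windows in which C8 stood apart are therefore given with and without it.

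The sequences that carry the methylation described below are shown first, in the direction of transcription, with each CpG that was measured in at least 1 animal in capitals. The stretch of Nanog (chr6:122708049-122708154, plus strand) lies in intron 1 and holds the 3 measured CpG sites of the window, at +594, +602 and +631 from the gene start. That of Dppa3 (chr6:122626625-122626845, plus strand) also lies in intron 1. Those of Zfp42 (chr8:43307800-43307920 and chr8:43307400-43307585, minus strand) and of Esrrb (chr12:86360997-86361116, plus strand) lie upstream of the gene start. The stretch of Utf1 (chr7:139943889-139944119, plus strand), in the coding part of exon 1, is shown as an unmethylated contrast, with 28 CpG sites in 231 bases, all of them measured in every animal.
Nanog intron 1: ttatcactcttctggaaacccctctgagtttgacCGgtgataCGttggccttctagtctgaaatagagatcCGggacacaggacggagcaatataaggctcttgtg
Dppa3 intron 1: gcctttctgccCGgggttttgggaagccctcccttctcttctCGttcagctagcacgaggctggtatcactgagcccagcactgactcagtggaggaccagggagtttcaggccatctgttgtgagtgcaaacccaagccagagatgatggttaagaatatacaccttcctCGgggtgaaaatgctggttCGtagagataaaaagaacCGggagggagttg
Zfp42 distal upstream: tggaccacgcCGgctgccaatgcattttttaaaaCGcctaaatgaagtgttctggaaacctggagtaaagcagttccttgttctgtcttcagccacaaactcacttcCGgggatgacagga
Zfp42 proximal upstream: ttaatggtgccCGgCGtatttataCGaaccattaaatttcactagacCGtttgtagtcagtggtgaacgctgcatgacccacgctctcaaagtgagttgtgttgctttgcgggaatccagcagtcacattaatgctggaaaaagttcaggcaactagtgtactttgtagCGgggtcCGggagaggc
Esrrb upstream: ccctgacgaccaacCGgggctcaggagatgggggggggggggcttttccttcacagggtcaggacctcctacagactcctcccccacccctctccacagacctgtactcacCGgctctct
Utf1 exon 1: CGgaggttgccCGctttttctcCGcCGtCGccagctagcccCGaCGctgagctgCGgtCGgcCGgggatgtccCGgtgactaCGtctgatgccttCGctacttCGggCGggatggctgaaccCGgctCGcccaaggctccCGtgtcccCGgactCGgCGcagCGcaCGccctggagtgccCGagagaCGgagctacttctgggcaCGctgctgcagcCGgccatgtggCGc

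Of the 10 windows, 6 were unmethylated in sperm (mean of 20% or less), 1 was methylated (80% or more) and 3 lay in between. The level of a window is the unweighted mean over its CpG sites measured in all 10 animals, followed by the mean ± SD over the animals. The 6 unmethylated windows held 263 of the 273 CpG sites, and every one of these 263 had a mean below 20%, the highest being 6.97%. Over all members, 250 CpG sites were at 5% or less, 264 at 20% or less, 8 in between and 1 at 80% or more. Among the 14274 windows of all protein-coding genes with a CpG site measured in all animals, 88.3% were unmethylated, 6.84% in between and 4.81% methylated, with a median level of 1.12%.

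**Figure D1:**
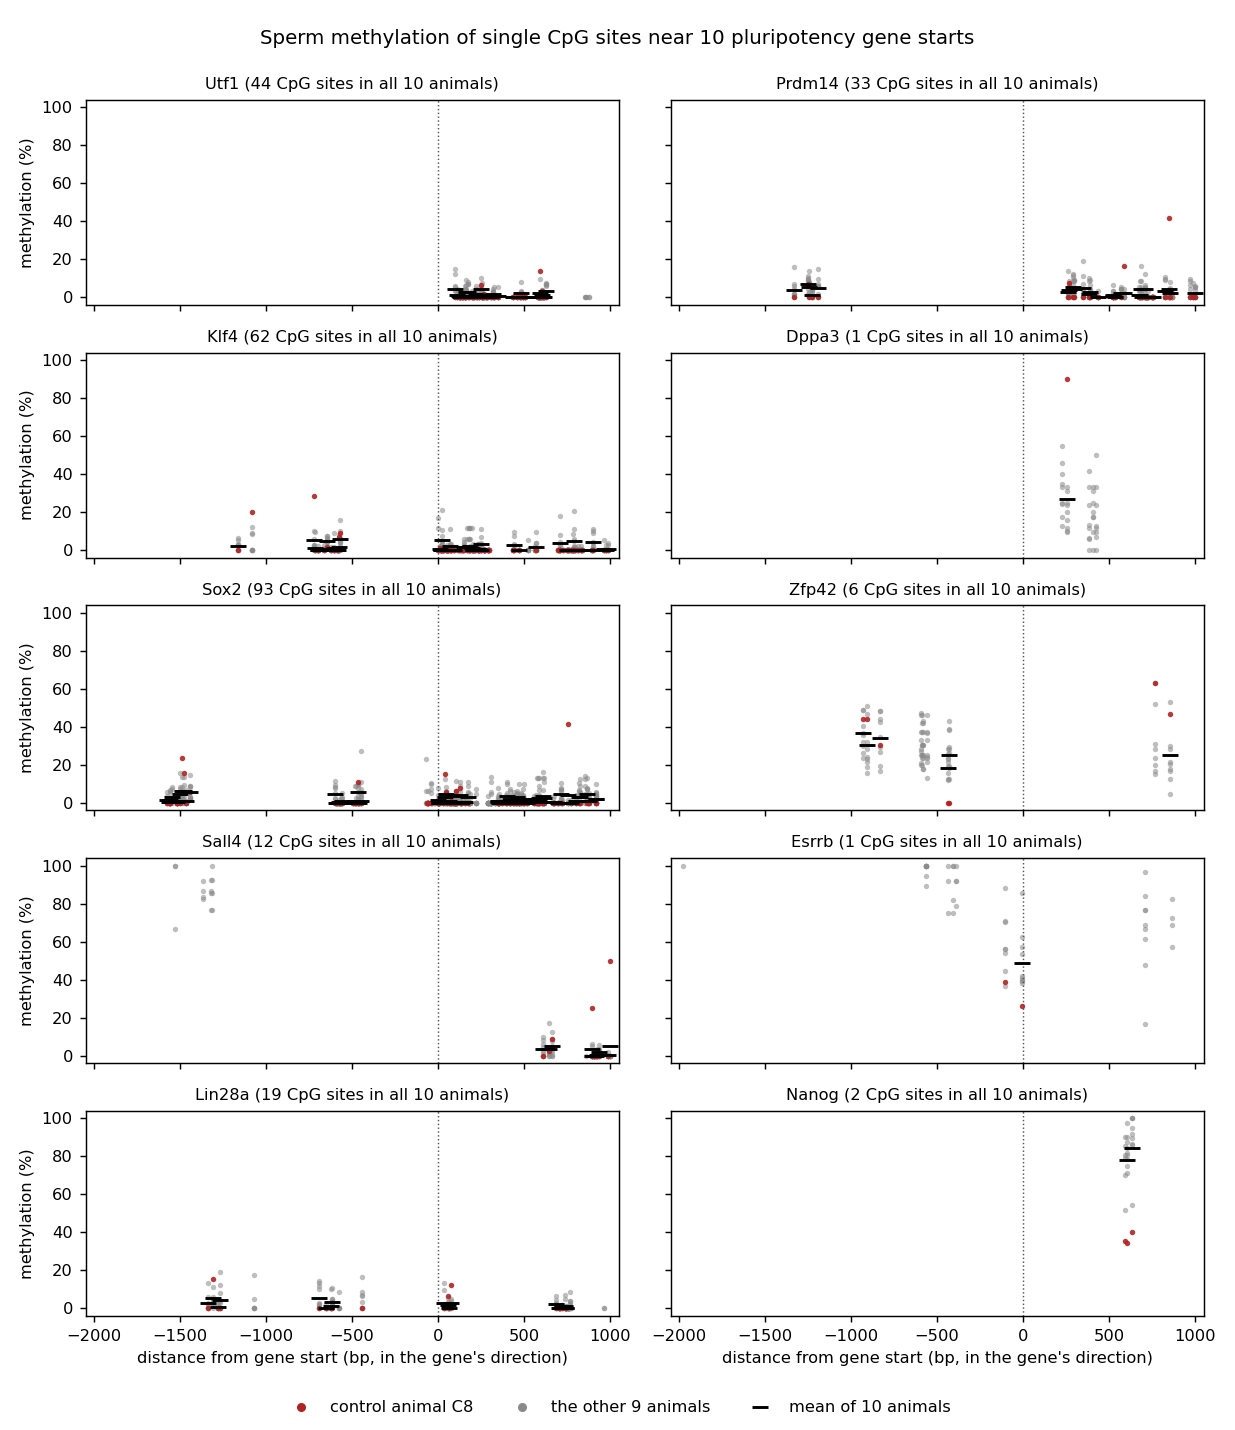
Methylation (%) of each CpG site with at least 10 reads against its distance from the gene start in bp, for the 10 genes in order of their mean level. Red points are control animal C8, grey points the other 9 animals and black bars the mean of the 10 animals, drawn where all 10 had 10 reads. The CpG sites of Utf1, Klf4, Sox2, Lin28a and Prdm14 lie near 0 apart from a few raised points. Among these are points of C8 in Klf4, Sox2 and Prdm14 and of D11 in Klf4. The CpG sites of Dppa3, Zfp42, Esrrb and Nanog lie higher and scatter more between animals.

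Sox2 and Klf4, which encode core transcription factors of the pluripotency network, were unmethylated over CpG-rich sequence. Sox2 (chr3:34648405-34651405, plus strand) had 1.44% ± 0.477 (SD, n = 10 animals) over 93 CpG sites, with animals between 0.69% in D13 and 2.32% in D11. The measured CpG sites of Sox2 lay in the coding part of its only exon and upstream, and the window also overlaps the long non-coding gene Sox2ot. Klf4 (chr4:55531466-55534466, minus strand) had 1.07% ± 0.512 (n = 10) over 62 CpG sites in the first exon, the introns, exon 2 and upstream, with animals between 0.612% in D10 and 2.31% in D11. D11 was the highest animal in both genes, and at no CpG site of either was the mean over the animals above 6.36%.

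Utf1, a chromatin-associated regulator of embryonic stem cells, was the least methylated member. Its window (chr7:139941789-139944789, plus strand) had 0.792% ± 0.256 (n = 10) over 44 CpG sites, from 0.426% in D13 to 1.37% in D11, and all 44 CpG sites lay between +100 and +629 in the coding part of exon 1. The 28 capital CpG sites of the Utf1 stretch above belong to these. No CpG site upstream of Utf1 was measured in any animal.

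Lin28a, which encodes an RNA-binding protein that blocks maturation of let-7 microRNAs, and Prdm14, a transcriptional regulator of naive pluripotency and of primordial germ cells, were also unmethylated. Lin28a (chr4:134017841-134020841, minus strand) had 1.89% ± 0.623 (n = 10) over 19 CpG sites between -1339 and +744, from 0.749% in D13 to 2.76% in F3D7. Prdm14 (chr1:13126163-13129163, minus strand) had 2.40% ± 0.618 (n = 10) over 33 CpG sites, from 1.61% in D13 to 3.57% in C14. Within Prdm14, the 5 CpG sites between -1334 and -1193 averaged 4.5% and the 20 CpG sites from +500 to +1000 averaged 1.53%.

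Sall4, a zinc-finger factor of embryonic stem cells and spermatogonia, was unmethylated around the start of its main transcript. In the window (chr2:168766943-168769943, minus strand) the 12 CpG sites measured in all animals lay between +609 and +998. The principal transcript starts 742 bp downstream of the gene record. The level was 1.87% ± 1.97 (n = 10), and 1.28% ± 0.694 without C8. Single animals had 7.15% (C8) and 1.92% (C14) in the P control group, 1.45%, 0.925% and 0.561% (D10, D11 and D13) in the P decitabine group, 2.78% and 1.29% (F3C9 and F3C30) in the F3 control group and 0.844%, 0.803% and 0.954% (F3D1, F3D7 and F3D31) in the F3 decitabine group. The high value of C8 came from site +998, with 8 of 16 reads methylated there (50.0%, 95% Wilson interval 28% to 72.0%) and 0 in the other 9 animals, and from +894 with 25%. Around the principal start (chr2:168766201-168769201) 42 CpG sites were measured in all animals and averaged 1.18% ± 1.02.

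Far upstream, Sall4 looked different. The 4 CpG sites between -1531 and -1316 had at least 10 reads only in 3 or 4 animals each, and there their levels were between 66.7% and 100.0%. They are not part of the window's level. With each animal's own CpG sites counted, the mean of Sall4 became 9.85%, since D13, F3C9, F3C30 and F3D1, in which these sites were measured, then had 16.1%, 23.6%, 23.7% and 21.9%.

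Nanog, which encodes a homeodomain factor of the inner cell mass and of primordial germ cells, was the single methylated member. Its 2 CpG sites measured in all animals, +602 and +631 in intron 1 (window chr6:122705489-122708489, plus strand), averaged 81.3% ± 18.1 (n = 10), and 86.2% ± 9.92 without C8. The P control animals had 37.2% (C8) and 82.6% (C14), and the P decitabine animals 86.9% (D10), 63.0% (D11) and 87.5% (D13). The F3 control animals had 98.8% (F3C9) and 89.8% (F3C30), and the F3 decitabine animals 84.2% (F3D1), 90.4% (F3D7) and 92.6% (F3D31). C8 was the lowest animal and D11 the next lowest, and the other 8 lay above 80%. In C8, 10 of 29 reads at +602 were methylated (34.5%, Wilson interval 19.9% to 52.7%), and 6 of 15 reads at +631 (40.0%, 19.8% to 64.3%). The intervals cover counting error only. No CpG site upstream of Nanog or in its first exon reached 10 reads in any animal. The class thus holds for the mean of +602 and +631 and not for the sequence next to the start. Of these 2 sites only +631, with a mean of 84.4%, was itself at 80% or more. Site +594 of the stretch shown above is not part of the level. It was below 80% in C8, C14, F3C30 and F3D1 (35.7% to 79.1%) and above 80% in D10, F3C9 and F3D31.

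Esrrb, which encodes an orphan nuclear receptor of naive pluripotent cells, had the second highest level. The gene record starts at a transcript other than the principal one, and 1 CpG site, -9, was measured in all animals there (window chr12:86359117-86362117, plus strand). It had 48.6% ± 16.8 (n = 10). The values were 26.2% and 40.0% in P controls C8 and C14, 39.4%, 62.5% and 38.1% in D10, D11 and D13, 40.6% and 53.7% in F3C9 and F3C30, and 42.1%, 57.4% and 85.7% in F3D1, F3D7 and F3D31. C8 was lowest and F3D31 highest, and the groups overlapped. Other CpG sites of the window were measured in fewer animals. Site -106 was at 36.8% to 88.0% in 9 animals, and site -567 at 89.5% to 100.0% in 9 animals.

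The principal transcript of Esrrb starts 60527 bp downstream of the gene record, and the window around that start (chr12:86419644-86422644) was unmethylated. There 20 CpG sites between +178 and +910 from the principal start averaged 0.886% ± 0.445 (n = 10), from 0% in C8 to 1.5% in D13, and the highest single site had a mean of 5.17%. That window has 117 CpG sites and a CpG observed over expected ratio of 0.52, against 61 and 0.30 at the start of the gene record. The 2 starts of the same gene thus differed by more than the spread between animals, with the lowest animal at the gene record (26.2%) above the highest at the principal start (1.5%).

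Zfp42 (also called Rex1), a zinc-finger gene widely used as a marker of the naive state, had an intermediate level in every animal. DNA of cells other than sperm could add to such a level, and its part was not tested here. By flow cytometry, the study found a high sperm purity, almost the same between groups, in randomly chosen samples of the P-generation. Whether these included the present animals is not stated. The 6 CpG sites of Zfp42 measured in all animals (window chr8:43305980-43308980, minus strand) averaged 28.4% ± 5.52 (n = 10). The P control animals had 27.5% (C8) and 23.8% (C14), and the P decitabine animals 37.4% (D10), 32.5% (D11) and 31.8% (D13). The F3 control animals had 35.1% (F3C9) and 24.1% (F3C30), and the F3 decitabine animals 25.6% (F3D1), 25.4% (F3D7) and 20.5% (F3D31). All 3 decitabine animals of the P-generation lay above both controls, whereas the F3 groups overlapped. Along the gene, the 3 CpG sites from -929 to -832 averaged 33.8%, sites -435 and -428 averaged 21.8%, and site +852 in intron 1 had 25.2%. At -435 and -428, 0 of 28 reads each were methylated in C8, and the other 9 animals had between 11.8% and 42.9%. The 4 CpG sites from -593 to -557, measured in every animal but C8, were between 13.3% and 47.4%.

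Dppa3 (Stella), a maternal and germ-cell factor that protects the zygote from loss of methylation, rested on 1 CpG site. Site +257 in intron 1 (window chr6:122624410-122627410, plus strand) had 27.0% ± 23.7 (n = 10), and 20% ± 8.94 without C8. C8 had 9 of 10 reads methylated (90%, Wilson interval 59.6% to 98.2%) and C14 had 25%. D10, D11 and D13 had 15.8%, 11.5% and 10.0%, F3C9 and F3C30 had 23.8% and 9.68%, and F3D1, F3D7 and F3D31 had 33.3%, 31.2% and 20%. C8 alone was high, and the other 9 animals were between 9.68% and 33.3%, on 10 to 31 reads each. The neighbouring CpG sites +226, +386, +405 and +423 had fewer than 10 reads in C8 and lay between 0% and 55.0% in the animals in which they were measured.

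In order of their means, the windows ran from Utf1 through Klf4, Sox2, Sall4, Lin28a and Prdm14 to Dppa3, Zfp42, Esrrb and Nanog. Within the unmethylated 6, neighbours in this order differed by 0.021 to 0.509 percentage points, and their ranges over the animals overlapped. The step from Prdm14 to Dppa3 was the only gap, with the highest animal of Prdm14 at 3.57% and the lowest of Dppa3 at 9.68%. Dppa3 and Zfp42 did not differ beyond their spread (Zfp42 higher in 6 of 10 animals, mean difference 1.33 ± 25.2 points), whereas Esrrb was above Zfp42 in 9 of 10 animals and Nanog above Esrrb in 10 of 10.

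The 6 unmethylated windows and the other 4 also differed in base composition, which the choice of the genes did not use. The observed number of CpG over that expected from the C and G content was between 0.41 (Sall4) and 0.80 (Klf4) in the 6 unmethylated windows, and 0.26 (Nanog), 0.30 (Esrrb), 0.33 (Dppa3) and 0.38 (Zfp42) in the other 4. The groups did not overlap on this measure. In the same range of 0.2 to 0.4, 67.8% of 3232 protein-coding windows were unmethylated, 20.9% in between and 11.3% methylated, whereas from 0.4 to 0.6 98.0% of 6468 were unmethylated. Thus, all 4 members of low CpG density were outside the commonest class of their density range. Of the 837 windows with 2 or fewer measured CpG sites, as in Nanog, Dppa3 and Esrrb, 39.4% were methylated and 31.4% unmethylated.

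**Figure D2:**
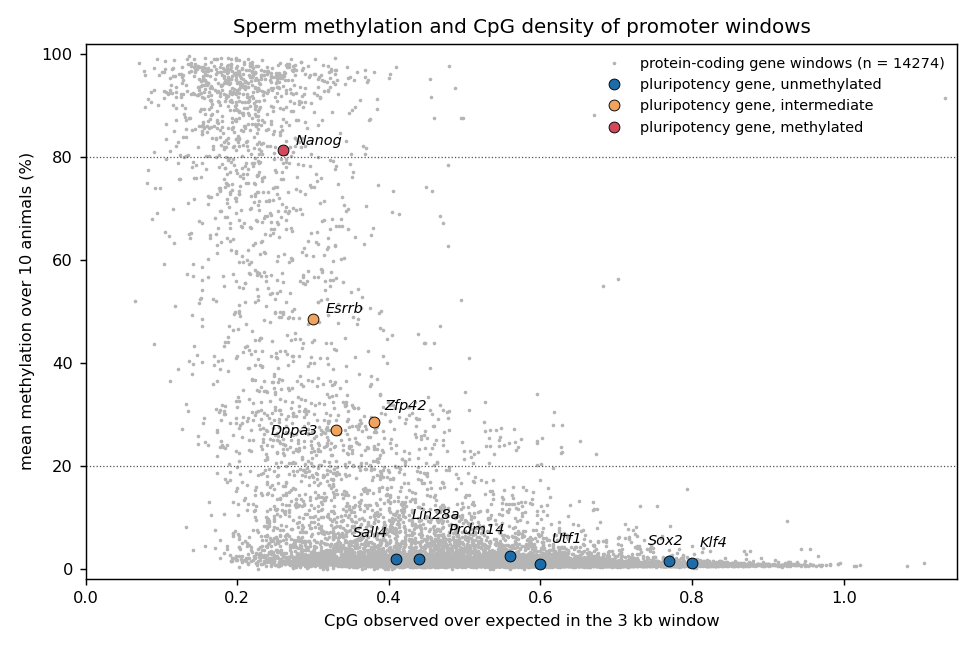
Mean methylation over the 10 animals (%) against the CpG observed over expected ratio of the 3 kb window, for 14274 protein-coding genes (grey) and the 10 pluripotency genes (coloured by class). Dotted lines mark 20% and 80%. The 4 genes above 20% all have a ratio under 0.4, and the 6 others lie near 0 from 0.41 to 0.80.

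Other genes of the pluripotency network were read with the same window. Of 30 genes, 22 had a CpG site measured in all animals, and 16 of these were unmethylated, 3 in between and 3 methylated. The intermediate genes were Pou5f1 (Oct4), the central POU factor, with 32.5% ± 7.72 (n = 10) over 8 CpG sites, Dppa4 with 30.7% ± 16.7 over 3 and Tcl1 with 29.0% ± 7.03 over 4. The methylated ones were Dppa5a (91.9% ± 8.76, 1 CpG site), Zscan10 (86.3% ± 6.65, 2 CpG sites) and Lefty1, an inhibitor of Nodal signalling (92.5% ± 4.97, 3 CpG sites). Dppa4 in C8 was at 71.2%, and the other 9 animals were between 11% and 36.4%. Among those without a CpG site measured in all animals were the windows of Tdgf1, Fgf4, Nr5a2, Dppa2, Fbxo15, Tet1 and Nr0b1.

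For the comparison of the groups, the window level of each animal was used first. With 3 against 2 animals there are 10 ways to split a generation, so that an exact permutation test (two-sided) cannot give a p below 0.1, and no window could pass a threshold of 0.05. In the P-generation, all decitabine animals lay on one side of both controls in 3 of 10 windows, Zfp42, Sall4 and Dppa3, against 20.4% of all 14274 protein-coding windows. In the F3-generation this was so in 1 of 10, Sall4, against 18.1% of all windows. Both counts are near these backgrounds.

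Zfp42 in the P-generation had 33.9% ± 3.09 (SD, n = 3) after decitabine and 25.7% ± 2.63 (n = 2) in controls, a difference of 8.23 percentage points (exact permutation p = 0.1). In the F3-generation it had 23.9% ± 2.92 (n = 3) and 29.6% ± 7.78 (n = 2), a difference of -5.72 points (exact permutation p = 0.4). The difference of the P-generation minus that of the F3-generation was 14 points (exact permutation p = 0.03 over 100 splits within generations, unadjusted, 10 windows tested). These splits treat P animals and their F3 descendants as independent. Within lines of descent it was 14.6 points (exact permutation p = 0.333, the smallest that 2 lines against 2 allow). The decitabine animals were higher than both controls in 3 of 3 cases in the P-generation, and in the F3-generation 1 of 3 was below both controls. Without C8 the difference of the P-generation was 10.1 points over the same CpG sites (exact permutation p = 0.25, the smallest that 3 animals against 1 allow), and the difference between the generations was 15.8 points (exact permutation p = 0.075). With F3D1 and F3D31 averaged as descendants of D10, the F3 difference was -5.33 points (exact permutation p = 0.667). From ancestor to descendant, the Zfp42 level changed by 7.57 points in the line of C8, 0.277 in that of C14, -14.4 in that of D10 and -7.01 in that of D11.

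The imprinted windows read as a check of the sperm label also varied between animals. The mean of the 11 maternally imprinted windows was 14%, 15.7% and 12.1% in D10, D11 and D13 and 16.1% and 8.94% in C8 and C14. It was 12.6% and 8.6% in F3C9 and F3C30 and 11.6%, 9.38% and 9.99% in F3D1, F3D7 and F3D31. The 5 animals above 12%, C8, D10, D11, D13 and F3C9, were the 5 with the highest Zfp42 levels, a limit chosen after the values were seen. Within these 5, C8 had the highest imprinted mean and the lowest Zfp42 level. The range was 8.94% to 16.1% in P controls, 12.1% to 15.7% in P decitabine animals, 8.6% to 12.6% in F3 controls and 9.38% to 11.6% in F3 decitabine animals, and none of the 11 windows was at 0 throughout a group. Their part in the result was not tested.

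**Figure D3:**
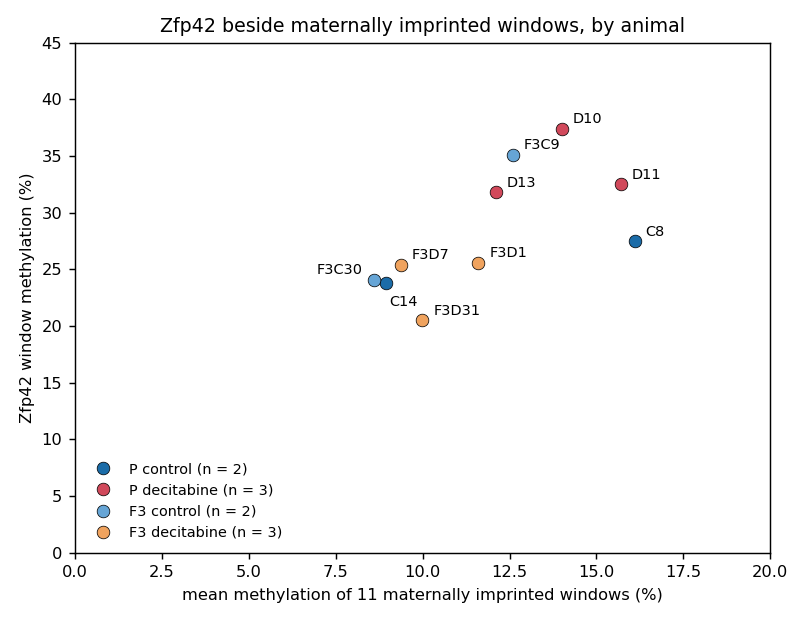
Level of the Zfp42 window (%) against the mean level of 11 maternally imprinted windows (%), 1 point per animal, coloured by group. The 5 animals with the higher imprinted level, C8, D10, D11, D13 and F3C9, have Zfp42 levels of 27.5% to 37.4%, and the other 5 have 20.5% to 25.6%.

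Dppa3 had 12.4% ± 3.00 (n = 3) after decitabine and 57.5% ± 46.0 (n = 2) in controls of the P-generation, a difference of -45.1 points (exact permutation p = 0.1). In the F3-generation the values were 28.2% ± 7.17 (n = 3) and 16.7% ± 9.99 (n = 2), a difference of 11.5 points (exact permutation p = 0.3). The difference between the generations was -56.5 points (exact permutation p = 0.02, unadjusted, 10 windows tested), and its size depended largely on C8 and its 10 reads. Within lines of descent it was -56.1 points (exact permutation p = 0.333). Without C8 the difference of the P-generation was -12.6 points at the same CpG site (exact permutation p = 0.25) and 0.726 points, in the other direction, over the CpG sites measured in the other 9 animals (exact permutation p = 1). The difference between the generations was then -24 points (exact permutation p = 0.05) and -14.6 points (exact permutation p = 0.3). With F3D1 and F3D31 averaged, the F3 difference was 12.2 points (exact permutation p = 0.333, the smallest that 2 lines against 2 allow).

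In Sall4 the decitabine animals lay below both controls in both generations over the CpG sites measured in all animals. In the P-generation it had 0.978% ± 0.446 (n = 3) against 4.54% ± 3.70 (n = 2), and in the F3-generation 0.867% ± 0.0783 (n = 3) against 2.03% ± 1.05 (n = 2), with an exact permutation p of 0.1 in each. The differences of -3.56 and -1.17 points stand beside the values of C8 and F3C9, which were the highest animals of the 2 control groups. Without C8 the difference of the P-generation was -0.946 points (exact permutation p = 0.25). With each animal's own CpG sites the difference was 1.63 points in the P-generation, in the other direction (exact permutation p = 1), and -15.8 points in the F3-generation (exact permutation p = 0.2), where the far upstream sites entered in some animals only. In F3C9 the largest value was that of site +643 with 17.4%.

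In the other 7 windows the groups overlapped in both generations. For Nanog the difference was 19.2 points in the P-generation (exact permutation p = 0.5), with C8 the low animal, and -5.21 points in the F3-generation (p = 0.5). Without C8 the Nanog difference of the P-generation was -3.44 points, in the other direction (exact permutation p = 1). For Esrrb it was 13.6 points (exact permutation p = 0.6) and 14.6 points (p = 0.4). Without C8 the Esrrb difference of the P-generation was 6.66 points at the same CpG site and 0.315 points over the CpG sites measured in the other 9 animals (exact permutation p = 1 for both). In Sox2, Klf4, Utf1, Lin28a and Prdm14 the differences were between -0.813 and 0.417 points in the P-generation and between -0.0948 and 0.511 points in the F3-generation, with exact permutation p of 0.4 or more. Without C8 and over the same CpG sites, the P differences of these 5 windows were between -1.49 points (Prdm14) and 0.313 points (Klf4).

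**Figure D4:**
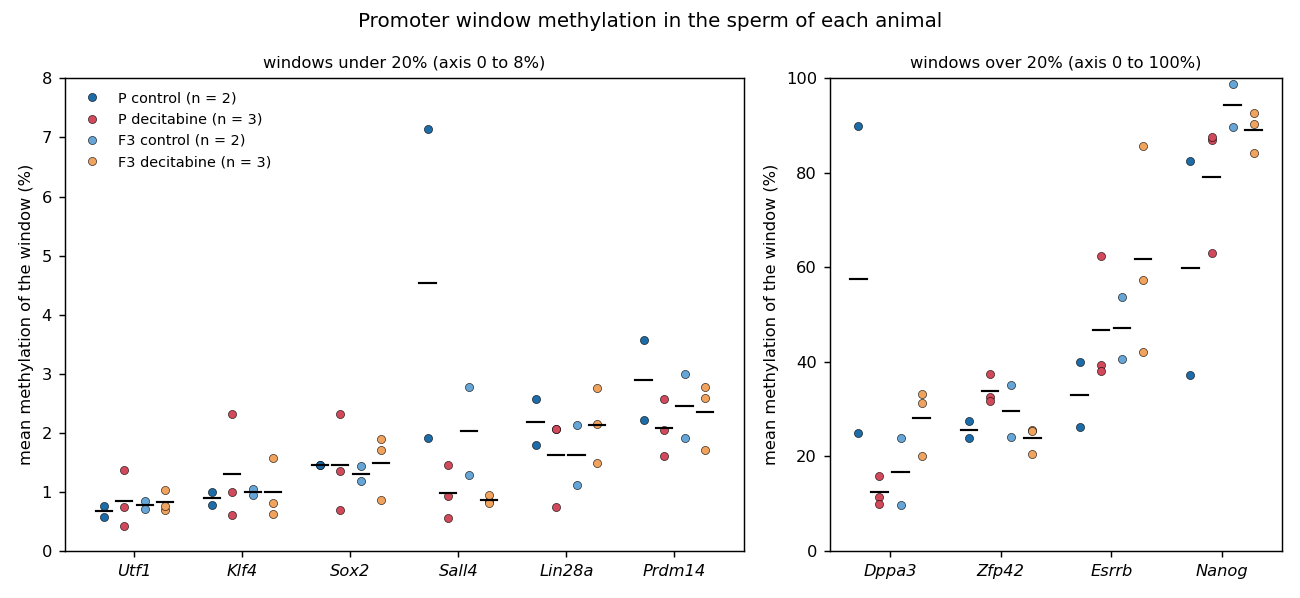
Level of each window (%) in each animal, by group, with the group means as bars. The left panel ends at 8% and the right panel at 100%. The control animal at 7.15% in Sall4, 90% in Dppa3 and 37.2% in Nanog is C8, and in Zfp42 the 3 P decitabine animals lie above both P controls.

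Single CpG sites were then tested with the reads of the animals of a group pooled, in a binomial likelihood-ratio test over all CpG sites of a generation with Benjamini-Hochberg adjustment. A CpG site was called when the pooled levels of the groups lay 25 or more percentage points apart and q was below 0.01, the limits used in the study. Of 286 pluripotency CpG sites tested in the P-generation 0 were called, against 0.705% of all 934217 CpG sites. In the F3-generation 0 of 299 were called, against 0.237% of 1054262. At an unadjusted p below 0.05 there were 51 of 286 sites, against 17.2% of all CpG sites of the P-generation, and 38 of 299, against 16.1% in the F3-generation. Fisher's exact test called 0 member sites in both generations, against 0.59% and 0.19% of all CpG sites. An F test that allows for spread between animals called 0.0% of all CpG sites in either generation (0 of 934217 and 0 of 1054262), so that its 0 for the members carries no information about them. The median size of the difference was 0.381 points in the P-generation and 0.654 in the F3-generation, against 0.935 and 0.959 over all CpG sites. A site near 0% in all animals can hardly differ by 25 points, and 275 of the 286 and 281 of the 299 sites lay in the 6 unmethylated windows.

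The 3 largest differences of the P-generation were those of Dppa3 +257, Zfp42 -832 and Sall4 +998. Dppa3 +257 differed by -37.3 points and passed the size but not the q limit (likelihood-ratio q = 0.0132). Zfp42 -832 was 19 points higher after decitabine (likelihood-ratio q = 0.0461), with 34.8%, 48.3% and 48.4% in D10, D11 and D13 and 30.4% and 19.6% in C8 and C14, so that the groups did not overlap. Sall4 +998 differed by -17.8 points (likelihood-ratio q = 0.000452), all of it from C8.

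In the F3-generation the 3 largest were Dppa3 +226 with 19.3 points (likelihood-ratio q = 0.211), Zfp42 +765 with -17.8 points (q = 0.273) and Zfp42 +852 with -17.7 points (q = 0.0509). At Zfp42 +852, F3C9 had 52.9% and F3C30 16.7%, and F3D1, F3D7 and F3D31 had 28.6%, 4.88% and 12.8%, so that the groups overlapped and F3C9 alone was high. At +765 F3C9 was again highest with 63.0%, and the other 4 animals had between 15.0% and 30.8%.

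Whatever the size of the difference, 4 CpG sites in the P-generation and 2 in the F3-generation had q below 0.01, against 2.58% and 1.31% of all CpG sites, and they are named here after their values were seen. The 4 of the P-generation, Sox2 -1488, Klf4 -722, Sall4 +894 and Sall4 +998, were all lower after decitabine, with pooled differences between -17.8 and -12 points. These 4 are also the sites that a limit of 10 points in place of 25 would call, 4 of 286 against 2.13% of all CpG sites, and in the F3-generation that limit would call 0 of 299 against 0.953%. In each of the 4 C8 was the highest of the 10 animals, with 23.8%, 28.6%, 25% and 50.0%. The 2 of the F3-generation were higher in decitabine animals. Prdm14 -1334 had 6.94%, 1.56% and 16.0% in F3D1, F3D7 and F3D31 and 0% in both controls, a pooled difference of 8.53 points (likelihood-ratio q = 0.000382). Sox2 +173 had 10.7%, 0% and 5.56% against 0% and 1.09%, a difference of 6.50 points (likelihood-ratio q = 0.00332), and here the groups overlapped.

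**Figure D5:**
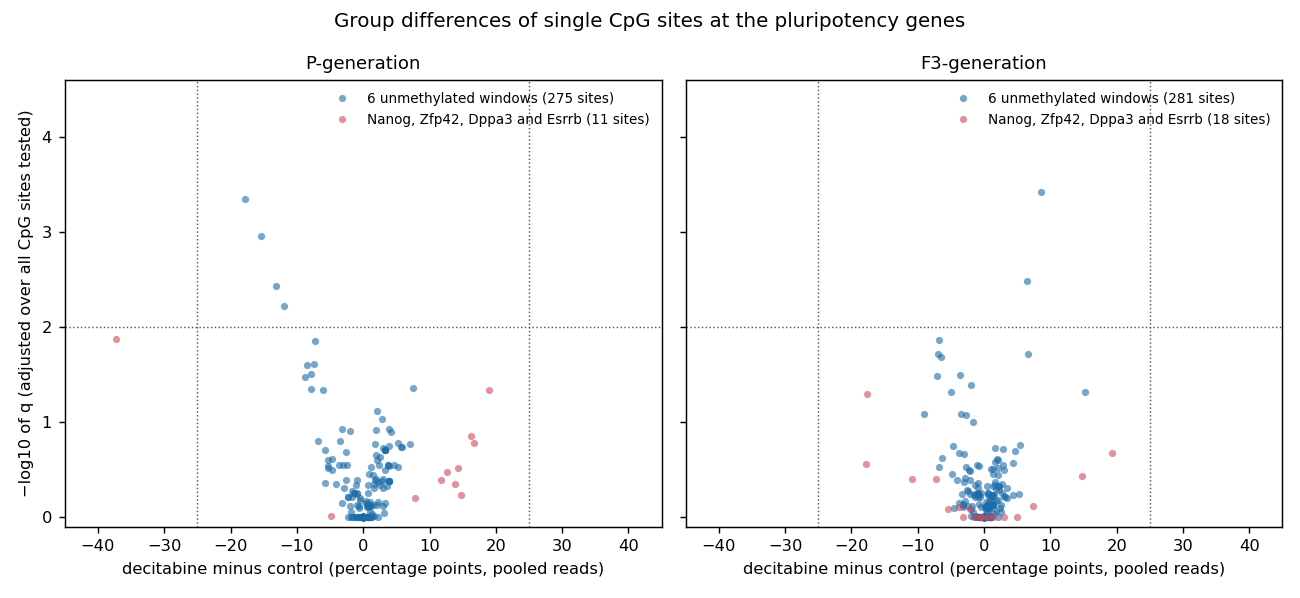
Difference in pooled methylation, decitabine minus control (percentage points), against -log10 of q for each CpG site of the 10 windows in the P-generation (left, 286 sites) and the F3-generation (right, 299 sites). Dotted lines mark the limits of 25 points and q = 0.01, and 0 sites lie beyond both. The red point at -37.3 is Dppa3 +257, and the 4 blue points above the line on the left are those in which C8 is the highest animal.

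In the wider list of 30 network genes, 1 of 703 CpG sites tested in the P-generation was called, in Klf2 and lower after decitabine, and 0 of 798 in the F3-generation. Of the 22 covered windows, the decitabine animals lay on one side of both controls in 6 in each generation. As for the 10 members, these shares stand beside backgrounds of 0.705% and 0.237% of CpG sites and 20.4% and 18.1% of windows.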

How the data were processed

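Sperm DNA of 10 mice was measured by RRBS, 1 library each. According to the labels and the submitters' processing notes, the authors called bases with CASAVA 1.8.2, trimmed reads with Trim Galore 0.3.3 and cutadapt 1.1 and aligned them to mm10 with Bismark 0.10.1. The deposited files hold, for each animal, the counts of methylated and unmethylated reads of every CpG cytosine on each strand, unfiltered and not pooled between animals. PCR duplicates cannot be told from separate molecules in RRBS, so intervals cover counting error only.

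Everything else was computed from these counts with Python 3.11.15, NumPy 2.4.6, pandas 2.3.3 and SciPy 1.17.1. Strands were summed, CpG sites with at least 10 reads kept, and windows averaged without weights over sites measured in all 10 animals. Groups followed the labels. Window levels were compared by exact permutation over animals, and CpG sites by the likelihood ratio of a logistic model with a group term on pooled counts, without a term for the spread between animals, and Benjamini-Hochberg q-values over all sites of a generation. On simulated data for the P-generation with 934217 sites, 82.0% of 100 sites changed by 40 points were called. Of 100 sites changed by 55 points it was 100.0%. For the F3-generation with 1054262 sites the shares were 76.0% and 98.0%, and 0 unchanged sites were called in either. Whether these shares and the 0 hold for the member sites, most of them near 0%, was not tested. Whether they hold under the spread between these animals was not tested either. Gene starts and annotation came from GENCODE for GRCm38, sequences from the RefSeq copy of that assembly. The labels name no batches. Permutation p-values measure the spread between these animals, whereas likelihood-ratio and Fisher p- and q-values on pooled counts measure counting error alone. Lines of descent were taken from the study's description.

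All 10 genes are named in each comparison, together with called CpG sites, sites at the steps of intermediate profiles and the 3 largest differences per generation. Network genes are named where not unmethylated, not covered or called. One network gene is not reported here by name. Members, lists and tests were chosen with earlier results of these data known. Alternatives were other read minima, minima per strand, read weighting, each animal's own sites, a shorter window, the principal transcript start, limits of 10% and 90%, an overdispersed F test, Fisher's exact test, a limit of 10 points and leaving out each animal. Added after the data were seen were the CpG sites kept as they were without C8, F3 animals of 1 ancestor averaged, and the change within lines of descent.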

Additional observations from a re-analysis of the deposited data

Results flagged for a closer look

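Zfp42 and Dppa3 were flagged because their group differences in the 2 generations lay apart at an unadjusted exact permutation p of 0.05 or less. That test treats P animals and their F3 descendants as independent. For Zfp42 the difference between decitabine and control animals came to 8.23 points in the P-generation and -5.72 points in the F3-generation, and the one minus the other was 14 points (exact permutation p = 0.03, unadjusted, 10 windows tested). With each animal left out in turn this value was between 8.45 points (without F3C9) and 19.5 points (without F3C30), and p was above 0.05 in 8 of the 10 cases, between 0.0667 and 0.125. For Dppa3 the differences were -45.1 and 11.5 points, and the one minus the other was -56.5 points (exact permutation p = 0.02, unadjusted). Without C8 it was -24 points at the same CpG site (exact permutation p = 0.05) and -14.6 points over the sites measured in the other 9 animals (exact permutation p = 0.3), and with any other animal left out it was between -89.0 and -49.4 points with p of 0.05 or less. It rests on 1 CpG site with 10 reads in C8.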

How the results depend on the processing

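The number of unmethylated windows was 6 in the main analysis, 5 in the window of 1 kb upstream to 500 bp downstream (Sall4 then had no site), 7 at the principal start (with Esrrb) and 6 under the other alternatives. The number of methylated windows, 1 (Nanog), was 0 with a minimum of 20 reads, with each animal's own sites, in the shorter window and with limits of 10% and 90%, and between 0 and 1 when an animal was left out (0 without F3C9). Nanog had no site in the shorter window or at 20 reads, Dppa3 none at 20 reads or with 10 reads on each strand. Called CpG sites of the P-generation were 0, but 4 with a limit of 10 points (in Klf4, Sall4 and Sox2, against 2.13% of all sites), and between 0 and 8 when an animal was left out (8 without C14, where C8 is the only control, against 4.43% of all sites). In the F3-generation they were 0 with 10 points (against 0.953%) and between 0 and 2 when an animal was left out (2 without F3C30, in Esrrb and Zfp42, against 1.33% of all sites). The cause was not tested. The Esrrb level was 66.7% at a minimum of 5 reads, 69.5% with own sites and 71.8% without C8, which added CpG sites to the window. Of 165 repeats of window levels 158 moved by less than 1 SD of the animals. Of 175 repeats of group differences in each generation 173 were counted as the same, but this count does not mean that size or sign was kept. The Dppa3 difference of the P-generation was so counted although it went from -45.1 to 0.726 points without C8 and to -77.6 points without C14. The Nanog difference of the P-generation was so counted although it went from 19.2 to -3.44 points without C8. The labels pair no control animal with a decitabine animal of the same generation, so these groups were not compared in pairs. Within lines of descent (2 control, 2 decitabine), an alternative chosen after seeing the data, the difference of the P-generation minus that of the F3-generation was 14.6 points for Zfp42 and -56.1 points for Dppa3, each with an exact permutation p of 0.333, the smallest possible. With 2 controls per generation and 10 to 31 reads at Dppa3, changes of single sites there could not be resolved.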
